A study of Mus musculus with 4 samples.

Results

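A set of 10 genes of simple epithelia was examined in nascent RNA of mouse embryonic stem (ES) cells that carried a Supt3 mutation. They are the keratin genes Krt8, Krt18, Krt7 and Krt19, the tight junction genes Cldn4, Cldn6, Cldn7 and Tjp1, and the plaque genes Dsp and Jup. The 10 genes were taken by name from the 54146 mouse genes of the deposited table, and each matched 1 row. All 10 passed the filter on low counts, which 16789 genes passed in all. They were named with earlier KO and WT values of these libraries known, Krt7, Krt8 and Krt18 among them. The KO against WT values of the 10 genes are therefore a description, and no test is rested on them.

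The series held 2 libraries labelled Supt3 KO and 2 labelled Supt3 WT, all from ES cells kept in serum with LIF, the cytokine that maintains the ES state. RNA made during a pulse of 4-thiouridine was purified and sequenced (TT-seq), so that the counts follow ongoing transcription, and labelled RNA of the yeast S. pombe was added as a spike-in. Supt3 encodes a subunit of SAGA, a coactivator complex. The labels give no strain, mutant allele or clone, nor do they say that the libraries of 1 genotype are separate cultures. All p-values therefore reflect the spread among 4 libraries, part or all of which can be technical. Mouse counts were 13.1 M and 18.4 M in KO and 13.5 M and 19.4 M in WT (M, 1e6), with 3.46 M to 4.84 M S. pombe counts. Supt3 itself stood at 123 and 140 CPM (counts per 1e6, scaled as described below) in KO and at 148 and 159 CPM in WT, so the count over the whole gene does not check the genotype. Of 5 ES cell genes, which were transcribed in every library, 1 fell and 4 did not pass, with a median log2 fold change of -0.53 and sums of 1092 and 1412 CPM in KO, against 1732 and 1793 CPM in WT. Sox2 was also on the planned list of ES cell markers but was left out of these values. Nanog fell, with 69.7 and 92.0 CPM in KO, against 118 and 117 CPM in WT (-0.53 ± 0.13, edgeR adjusted p = 0.0362). Esrrb (-0.79 ± 0.22, edgeR adjusted p = 0.0682), Zfp42 (-0.62 ± 0.17, adjusted p = 0.0639), Sall4 (-0.23 ± 0.11, adjusted p = 0.260) and Pou5f1 (0.12 ± 0.10, adjusted p = 0.552) did not pass.

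Keratins are intermediate filament proteins that assemble as pairs of a type II and a type I chain. Krt8 (type II) and Krt18 (type I) form the first such pair of the mouse embryo, in trophectoderm and later in extraembryonic endoderm and other simple epithelia. Krt7 (type II) and Krt19 (type I) join them in some of these tissues. Desmoplakin, the product of Dsp, ties keratin filaments to the desmosome. Plakoglobin (Jup) sits in the plaques of desmosomes and adherens junctions. Claudins seal the space between neighbouring epithelial cells at tight junctions, where ZO-1, the product of Tjp1, is a scaffold under the membrane.

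The sequences around the annotated starts of Krt8, Krt18, Krt7 and Dsp are shown first, because these genes were higher together in KO. Krt19 was higher as well. RefSeq (GRCm38.p6, the assembly known as mm10) held an entry for 9 of the 10 genes, all but Krt19, with 2 start sites for Cldn7. The RefSeq starts of Krt8, Krt18 and Krt7 lie inside the gene spans given below. The whole Krt7 window is within its span, which begins at 101411043. The Krt8 window overlaps its span, which ends at 102004482. Printed are 250 bases before the annotated start and the first 30 from it, 5′ to 3′ on the strand of the gene. Capitals mark matches, on either strand, to 5 motifs. These were TATAAA for the TATA box, GGGCGG for the GC box bound by Sp1, TGANTCA for AP-1, GGAATG for TEAD factors and GCCNNNGGC for AP-2. The windows are chr15:102004313-102004592 on the minus strand for Krt8, chr15:102027966-102028245 on the plus strand for Krt18, chr15:101412153-101412432 on the plus strand for Krt7 and chr13:38151044-38151323 on the plus strand for Dsp.
Krt8: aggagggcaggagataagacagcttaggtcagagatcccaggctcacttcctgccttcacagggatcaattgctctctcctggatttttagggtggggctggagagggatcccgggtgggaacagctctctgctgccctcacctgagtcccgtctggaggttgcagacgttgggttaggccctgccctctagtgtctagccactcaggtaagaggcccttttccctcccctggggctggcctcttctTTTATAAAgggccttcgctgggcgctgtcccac
Krt18: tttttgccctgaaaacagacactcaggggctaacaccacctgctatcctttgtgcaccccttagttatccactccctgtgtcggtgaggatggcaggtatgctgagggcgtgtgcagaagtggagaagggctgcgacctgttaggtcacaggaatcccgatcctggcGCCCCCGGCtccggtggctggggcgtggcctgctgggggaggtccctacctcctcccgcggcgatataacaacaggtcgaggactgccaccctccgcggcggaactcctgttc
Krt7: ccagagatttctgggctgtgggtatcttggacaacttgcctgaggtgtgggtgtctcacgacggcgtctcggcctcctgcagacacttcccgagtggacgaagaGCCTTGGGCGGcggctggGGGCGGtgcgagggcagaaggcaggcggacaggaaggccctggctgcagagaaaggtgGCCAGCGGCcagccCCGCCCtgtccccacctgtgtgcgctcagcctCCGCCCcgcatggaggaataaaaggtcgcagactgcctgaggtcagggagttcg
Dsp: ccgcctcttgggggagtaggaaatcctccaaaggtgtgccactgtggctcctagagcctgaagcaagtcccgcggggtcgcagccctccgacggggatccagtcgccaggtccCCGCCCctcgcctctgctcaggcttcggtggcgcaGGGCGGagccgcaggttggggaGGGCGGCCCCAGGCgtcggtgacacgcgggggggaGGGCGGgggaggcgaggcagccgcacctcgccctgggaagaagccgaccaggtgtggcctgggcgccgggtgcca

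The 4 windows did not share a motif of this set. Krt8 held TATAAA, read on both strands in 2 overlapping matches, in a stretch that covers the annotated start. A TATAAA was found in 13.1% of the 32541 distinct windows of this length. Krt18 held 1 GCCNNNGGC, which 15.5% of windows hold. Krt7 and Dsp each held 4 matches to GGGCGG, a motif present in 34.9% of windows, and Krt7 also held 2 and Dsp 1 of GCCNNNGGC, of which one in Krt7 and the one in Dsp overlap a GGGCGG. Matches to GGGCGG were also present in Cldn4, Cldn6, Cldn7, Tjp1 and Jup, thus in 7 of the 9 genes. TGANTCA occurred in Cldn4 alone among the 9 genes (7.45% of windows), in 2 copies, and GGAATG in Cldn6 and Cldn7 (13.9%).

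Transcription of the 4 keratin genes and of Dsp was higher in KO than in WT by 2.47- to 3.57-fold, while Jup, Cldn4 and Tjp1 differed by less than 1.2-fold. Levels are CPM with TMM scaling (trimmed mean of M-values), which sets each gene against the bulk of mouse transcripts. In edgeR's quasi-likelihood fit of all genes, 5 of the 10 genes were called higher at a Benjamini-Hochberg adjusted p under 0.05 and 0 lower, where 4.05% of all tested genes were called higher. In 8 of the 10 genes both KO libraries stood above both WT libraries, as they did in 26.7% of all tested genes. The median log2 fold change was 1.76 over the 4 keratins and 0.40 over the 6 junction genes, against 0.01 over all tested genes.

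**Figure D1:**
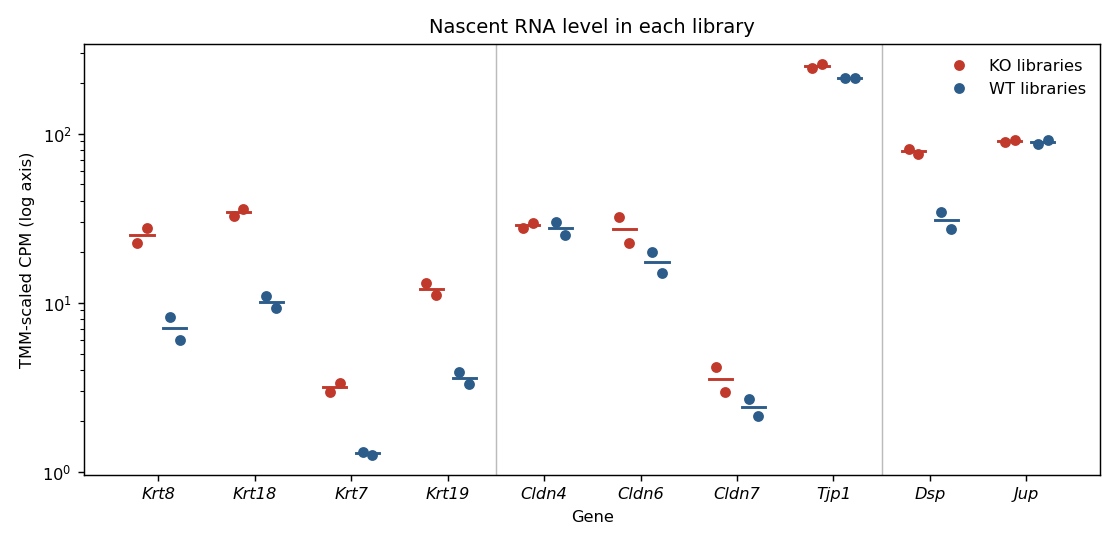
Levels of the 10 genes in each library, as TMM-scaled CPM on a log axis. Points are single libraries (KO red, WT blue) and bars are means of 2 libraries; the KO and WT points of the keratin genes and of Dsp stand clear of each other, whereas those of Cldn4 and Jup overlap.

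Krt8 had 22.5 and 27.5 CPM in the KO libraries, against 8.21 and 6.01 CPM in the WT libraries. The lower KO library was thus above the higher WT library by a wide margin. These values rest on 304 and 490 counts in KO and on 112 and 115 counts in WT. The mean was 25.02 ± 3.49 CPM in KO and 7.11 ± 1.55 CPM in WT (SD, n = 2 each), a log2 fold change of 1.83 ± 0.19 (SE). Its partner Krt18 had 32.5 and 36.0 CPM in KO, against 10.99 and 9.31 CPM in WT, with a log2 fold change of 1.76 ± 0.14. By log2 fold change they ranked 28 and 36 of all 16789 genes.

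The Krt8 and Krt18 genes are neighbours on chromosome 15 that are transcribed away from each other. In mm10 Krt8 (ENSMUSG00000049382) spans 101996698 to 102004482 on the minus strand and Krt18 (ENSMUSG00000023043) spans 102028180 to 102032027 on the plus strand, 23698 bases further. The genes kept nearly the same proportion in every library. There were 0.694 and 0.763 Krt8 counts per Krt18 count in KO, and 0.747 and 0.646 in WT, so the ranges overlapped although both genes were more than 3-fold higher in KO. Eif4b, a translation initiation factor gene on the far side of Krt18, stood at 438 and 428 CPM in KO and at 428 and 424 CPM in WT (log2 fold change 0.02 ± 0.10, edgeR adjusted p = 0.926). The antisense lincRNA AC139844.1, which overlaps the 5′ end of Krt8, had 7 and 9 counts in KO and 4 and 4 in WT.

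Krt19 had 13.1 and 11.1 CPM in KO, against 3.88 and 3.29 CPM in WT. Both KO libraries exceeded both WT libraries, and the log2 fold change was 1.76 ± 0.20, close to those of Krt8 and Krt18. Krt19 (ENSMUSG00000020911) lies on chromosome 11, from 100140810 to 100148665 on the minus strand, within the type I keratin cluster and away from Krt18. Counts of Krt19 per count of Krt18 averaged 0.355 ± 0.066 in KO and 0.354 ± 0.00042 in WT (SD, n = 2 each). Krt7, also on chromosome 15 (ENSMUSG00000023039, 101411043 to 101430313, plus strand), was the scarcest of the 10 genes. It had 2.97 and 3.37 CPM in KO, from 40 and 60 counts, against 1.32 and 1.25 CPM in WT, from 18 and 24 counts. The KO libraries again stood above the WT libraries, with a log2 fold change of 1.30 ± 0.29, whose error is the largest among the 10. The call of Krt7 was lost in DESeq2, without WT replicate 1 and without WT replicate 2, at log2 fold changes of 1.30, 1.33 and 1.26. The antisense gene AC157583.2 overlaps Krt7 and had 4 and 7 counts in KO and 1 and 2 in WT.

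Together the 4 keratin genes gave 71.1 and 78.0 CPM in KO, against 24.4 and 19.9 CPM in WT. Krt8 and Krt18 made up most of this sum in every library, with shares of 77.5% and 81.4% in KO and of 78.7% and 77.1% in WT. Krt7 took a smaller place beside Krt8 in KO, with 0.132 and 0.122 counts per Krt8 count in KO, against 0.161 and 0.209 in WT. These ratios rest on few Krt7 counts.

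Dsp, the desmosomal link to keratin, had 80.5 and 76.1 CPM in KO, against 34.5 and 27.1 CPM in WT. Here too the groups did not overlap, and the smallest KO value was over 2-fold the largest WT value. The log2 fold change was 1.35 ± 0.12, with 1085 and 1357 counts in KO and 471 and 519 in WT. Dsp (ENSMUSG00000054889) spans 38151294 to 38198577 on the plus strand of chromosome 13. Its nearest tested neighbour, Snrnp48, a gene of the minor spliceosome, stood at 129 and 130 CPM in KO and at 122 and 124 CPM in WT (0.07 ± 0.09, edgeR adjusted p = 0.682). Gm10129, which overlaps the start of Dsp on the opposite strand, had 3 and 0 counts in KO and 5 and 4 in WT.

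Jup, in contrast to Dsp, stood at nearly the same level in all libraries. It had 89.6 and 91.4 CPM in KO and 87.3 and 91.4 CPM in WT, and the groups overlapped. The log2 fold change was 0.02 ± 0.09 over 1191 to 1749 counts per library. Jup (ENSMUSG00000001552) spans 100368958 to 100397763 on the minus strand of chromosome 11 on which Krt19 also lies. Whether Dsp and Jup differ in their response was not tested.

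The tight junction genes varied among themselves. Cldn6, a claudin of early embryonic epithelia, had 32.1 and 22.6 CPM in KO, against 19.9 and 15.1 CPM in WT. The lower KO value was just above the higher WT value, and the KO libraries were 0.51 apart on the log2 scale, the widest gap among the 10 genes. The log2 fold change was 0.65 ± 0.19, which did not pass, although it passed without WT replicate 1 (0.85), without KO replicate 2 (0.89), without the low-count filter (0.66) and with a term for the library pairs by depth (0.64); it was 0.38 without KO replicate 1. Tnfrsf12a, the nearest tested gene on its lower side at 1916 bases, was higher in KO as well, at 13.3 and 14.1 CPM in KO and 7.84 and 5.96 CPM in WT (1.00 ± 0.18, edgeR adjusted p = 0.0131). Cldn9, 138 bases from Cldn6 on the other side, had 0.74 and 0.39 CPM in KO and 0.73 and 0.52 CPM in WT. Within 50 kb, 8 of the 10 genes had a tested neighbour, in 13 entries with log2 fold changes from -0.76 to 1.83. Of these, 3 were called, all higher, against 4.05% of all tested genes. They were Tnfrsf12a and, as neighbours of each other, Krt8 and Krt18.

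Cldn7 had 4.15 and 2.97 CPM in KO, against 2.71 and 2.14 CPM in WT. Its groups did not overlap, but the gap between them was smaller than the gap within KO. The log2 fold change was 0.55 ± 0.29, with 37 to 56 counts per library. Cldn4, a claudin of tight epithelia, had 27.7 and 29.6 CPM in KO and 30.0 and 25.2 CPM in WT. The groups overlapped (log2 fold change 0.06 ± 0.12). Tjp1 had 243 and 259 CPM in KO, against 213 and 213 CPM in WT. Both KO libraries were higher, by a log2 fold change of 0.24 ± 0.09 that did not pass, except in the fit with a term for the library pairs by depth (0.24).

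**Figure D2:**
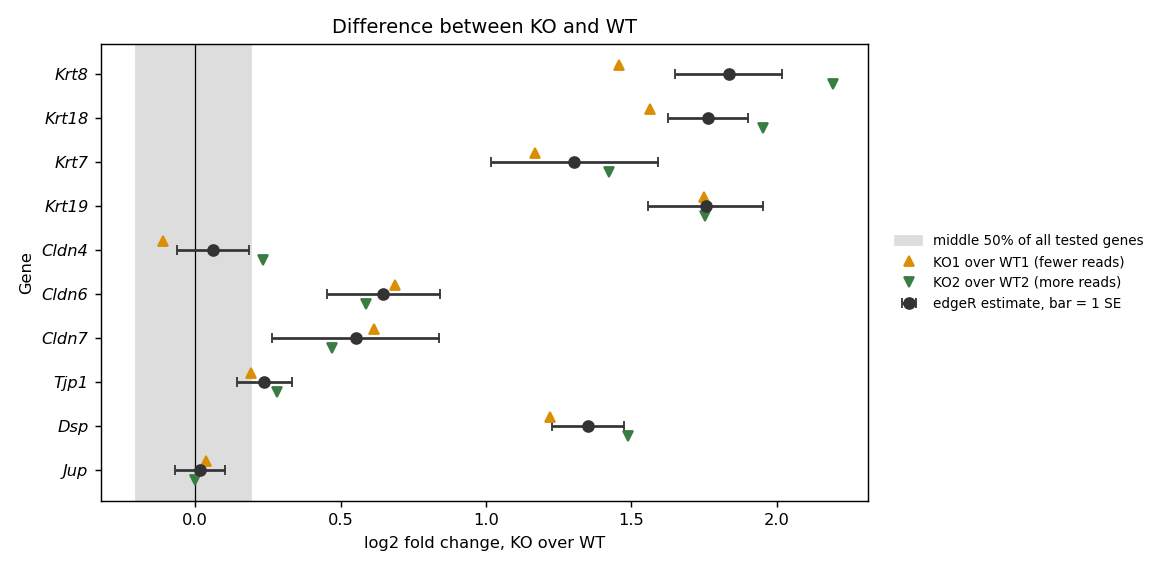
Log2 fold changes of KO over WT for the 10 genes. Black points are edgeR estimates with bars of 1 SE, triangles the ratio of the KO to the WT library within the pairs with fewer and with more counted reads, and the grey band spans the middle 50% of all tested genes (-0.20 to 0.19); the keratin genes and Dsp lie far right of the band, and Cldn4 and Jup lie in it.

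The libraries fall into a pair with fewer counted reads (KO replicate 1 and WT replicate 1) and a pair with more, which were defined from the data. Between the libraries with fewer reads the log2 ratio of KO to WT was 1.46 for Krt8, 1.56 for Krt18, 1.17 for Krt7, 1.75 for Krt19 and 1.22 for Dsp. Between those with more reads the same ratios were 2.19, 1.95, 1.42, 1.75 and 1.49. Each of the 5 genes was higher in KO within both pairs. That direction was given in advance, since both KO libraries stood above both WT libraries, and is no further check. The Cldn4 ratio was -0.11 in the pair with fewer reads and 0.23 in the other.

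Levels of different genes are compared here as CPM per kb of exon, with exon lengths from GENCODE M21. In KO the order from high to low was Tjp1 (32.1), Krt18 (23.8), Cldn6 (15.9), Cldn4 (15.8), Jup (14.1), Krt8 (12.8), Dsp (8.11), Krt19 (6.51), Cldn7 (1.83) and Krt7 (0.45). In WT it was Tjp1 (27.3), Cldn4 (15.2), Jup (13.9), Cldn6 (10.2), Krt18 (7.06), Krt8 (3.63), Dsp (3.19), Krt19 (1.93), Cldn7 (1.25) and Krt7 (0.18). Per kb of exon, Krt18 stood above the claudins and Jup in KO but below Cldn4, Cldn6 and Jup in WT. Neighbours in these orders such as Cldn6 and Cldn4 in KO, or Krt8 and Dsp in WT, were closer than the spread of their libraries. By level per kb, Krt8 was above 74.1% of genes in KO and above 47.5% in WT, and Krt18 above 86.2% in KO and 61.7% in WT. Per kb of gene span the order in WT differed, with Cldn4 (15.2) first, then Cldn6 (5.68), Jup (3.10), Krt18 (2.64), Tjp1 (0.92), Krt8 (0.91), Cldn7 (0.78), Dsp (0.65), Krt19 (0.46) and Krt7 (0.07). Tjp1, which spans 231617 bases, was thus below Krt18 by this measure. In KO, per kb of gene span, Krt18 (8.90) was below Cldn4 (15.8), level with Cldn6 (8.88) and above Jup (3.14). The place of Krt18 among the claudins in KO thus depends on the length used.

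Other keratin, junction and epithelial genes were taken as a panel of 132 genes, listed by family or structure. The panel holds all other keratin and claudin genes by symbol, but only chosen genes of the other structures. Its lists were made with earlier results of these data known, so its counts are a description. Of its 63 tested genes 10 were higher in KO, 3 lower and 50 did not pass in edgeR's test, against 4.05% higher and 4.02% lower over all tested genes. Their median log2 fold change was 0.15. The number of genes called in the panel, and in the lists described next, changed with the library left out. The number called over all tested genes changed as well. Such a fit leaves 1 library in a genotype, so its counts are not read as a result about the panel or a list.

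Nearly all other keratin genes were too low to test. Only 3 of 50 passed the filter, and none of the other 47 exceeded 0.729 CPM in any library. None of the 3 was called in edgeR, DESeq2 or limma voom. The share of all tested genes with an unadjusted edgeR p under 0.05 was not worked out. Counts under that cut, here and below, are therefore not a result about a list. Of the 3 keratin genes 2 were under it. Krt42, a type I keratin gene and the most abundant of them, had 1.11 and 1.74 CPM in KO and 3.22 and 2.93 CPM in WT (log2 fold change -1.07 ± 0.31, edgeR adjusted p = 0.0739), and it passed without KO replicate 2 (-1.45), without the low-count filter (-1.06) and with a term for the library pairs by depth (-1.07). With that term 1 of the 3 was called higher, as were 2214 of all tested genes. Of 22 other claudin genes 7 were tested and 0 called in the same tools, and 2 had an unadjusted edgeR p under 0.05. The most abundant was Cldn12, at 47.0 and 41.2 CPM in KO and 38.6 and 33.8 CPM in WT (0.28 ± 0.12, adjusted p = 0.185). Cldn12 passed without KO replicate 2 (0.38) and with the term for the library pairs by depth (0.28). With that term 2 of these claudin genes were called higher, and without the low-count filter 1 was. Over all genes these fits called 2214 and 1260 higher. The number of claudin genes called higher also changed without KO replicate 2 and without WT replicate 1.

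Among 17 partners of the tight junction 5 rose and 1 fell, with a list median of 0.13. Cgn, which encodes the plaque protein cingulin, had 33.5 and 28.7 CPM in KO, against 17.4 and 12.3 CPM in WT (1.07 ± 0.17, edgeR adjusted p = 0.00833). Patj, a scaffold of the Crumbs polarity complex, had 250 and 239 CPM in KO, against 155 and 131 CPM in WT (0.77 ± 0.11). The other 3 that rose, named after their values were seen, were the polarity gene Pard6b (0.75 ± 0.10), Ocln, which encodes occludin (0.55 ± 0.13), and F11r, which encodes the adhesion molecule JAM-A (0.37 ± 0.09). Ocln and F11r were not called in DESeq2, nor without WT replicate 1 or WT replicate 2. Jam2, a related adhesion molecule gene, fell, with 290 and 413 CPM in KO, against 642 and 572 CPM in WT (-0.79 ± 0.16).

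Of 16 desmosome partners 9 were tested, 2 rose, 0 fell and 7 did not pass, with a list median of 0.69. Perp, a membrane protein gene of desmosomes, had 92.6 and 64.4 CPM in KO, against 37.0 and 28.5 CPM in WT (1.26 ± 0.18, edgeR adjusted p = 0.00523). Ppl, which encodes the keratin-binding plaque protein periplakin, had 16.4 and 12.3 CPM in KO, against 8.50 and 6.54 CPM in WT (0.94 ± 0.20, adjusted p = 0.0261), and it was not called without WT replicate 2 (0.75). With RLE scaling and in limma voom 4 desmosome partners were higher. Among the genes that did not pass, and named after their values were seen, were the desmosomal cadherin genes Dsc2 (9.27 and 10.1 CPM in KO, 6.52 and 5.54 CPM in WT, 0.69 ± 0.18, edgeR adjusted p = 0.0526) and Dsg2 (44.8 and 52.9 CPM in KO, 38.0 and 43.7 CPM in WT, 0.26 ± 0.12, adjusted p = 0.242). The plaque gene Pkp3 had 4.82 and 4.83 CPM in KO and 2.93 and 1.93 CPM in WT (1.01 ± 0.27, edgeR adjusted p = 0.0542). Of the 9 tested genes 7 had a positive log2 fold change. Pkp2 (-0.31 ± 0.09, edgeR adjusted p = 0.0695) and Pkp4 (-0.29 ± 0.14, adjusted p = 0.262) were negative. Pkp4, the most abundant of the list, had 596 and 746 CPM in KO and 779 and 859 CPM in WT. The list summed to 854 and 981 CPM in KO and to 986 and 1050 CPM in WT.

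The adherens junction, by count, held 0 genes that rose and 1 that fell among 11. Cdh3, which encodes P-cadherin, had 36.1 and 32.9 CPM in KO, against 55.1 and 60.6 CPM in WT (-0.75 ± 0.10, edgeR adjusted p = 0.00472). Cdh1, which encodes E-cadherin and was picked after its values were seen, stood at 520 and 522 CPM in KO and at 490 and 509 CPM in WT (0.06 ± 0.10, edgeR adjusted p = 0.786). The list median was 0.09.

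Of 16 epithelial surface genes and regulators 3 rose, 1 fell and 12 did not pass, with a list median of 0.14. Prss8, which encodes the membrane protease prostasin, had 6.68 and 5.39 CPM in KO, against 1.98 and 1.67 CPM in WT (1.72 ± 0.26, edgeR adjusted p = 0.00606). St14, whose product matriptase acts with prostasin in epithelia, rose by 0.59 ± 0.13, and Ovol2, a repressor of mesenchymal genes, rose by 0.77 ± 0.17. Without WT replicate 2 St14 (0.46) and Ovol2 (0.62) were not called. Epcam, an epithelial adhesion gene that ES cells also transcribe and the 1 that fell, had 40.7 and 35.1 CPM in KO, against 58.7 and 53.2 CPM in WT (-0.56 ± 0.11, adjusted p = 0.0183); it lies outside the naming rule.

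Of 10 tested genes of other intermediate filaments and their linkers 3 rose and 0 fell. Itgb4, the integrin subunit that anchors keratin at hemidesmosomes, had 10.2 and 7.52 CPM in KO, against 3.52 and 2.88 CPM in WT (1.48 ± 0.24, edgeR adjusted p = 0.00840). Nes, which encodes nestin, rose by 1.00 ± 0.22 and Lmna, which encodes lamins A and C, by 0.68 ± 0.14; Lmna was not called without WT replicate 2 (0.52). None of 8 mesenchymal genes was called by any of the 3 tools (edgeR, DESeq2, limma voom). Of the 8, 5 had an unadjusted edgeR p under 0.05, again without the share of all tested genes. Some of the 8 were called without KO replicate 2 and without WT replicate 1. The most abundant, the fibronectin gene Fn1, stood at 321 and 294 CPM in KO and 366 and 358 CPM in WT (-0.24 ± 0.10, adjusted p = 0.205). With a term for the library pairs by depth Fn1 passed (-0.24), and the list counted 2 genes higher and 3 lower. All tested genes then counted 2214 higher and 2093 lower. Without the low-count filter 2 mesenchymal genes were lower, as were 1200 of all genes.

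**Figure D3:**
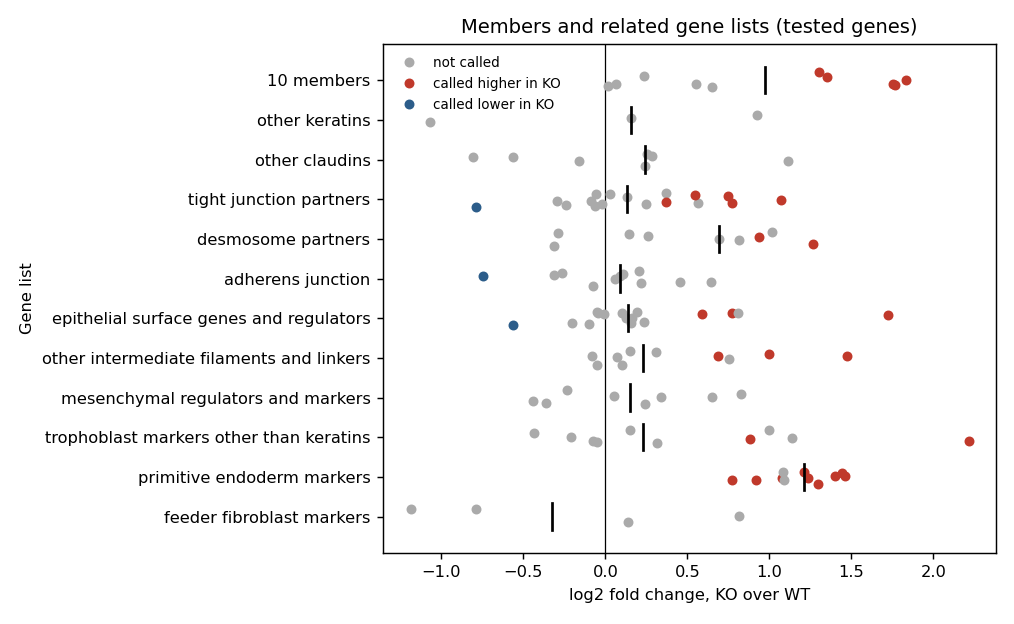
Log2 fold changes of KO over WT for the tested genes of each list, 1 point per gene, with the list median as a black bar. Red and blue points are genes called higher and lower in KO by edgeR, and grey points were not called; 9 of 11 primitive endoderm genes and 5 of the 10 genes described here are red, against 0 of the other keratins and claudins.

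Primitive endoderm and trophoblast are cell types that transcribe Krt8 and Krt18. Of 11 primitive endoderm genes 9 rose and 0 fell, and their summed level was 1253 and 1681 CPM in KO, against 637 and 733 CPM in WT. Sox17, which encodes a transcription factor of endoderm, rose by 1.46 ± 0.24. Col4a1 and Col4a2, whose collagens form basement membranes, rose by 1.44 ± 0.16 and 1.40 ± 0.13 (edgeR, highest adjusted p of the 3 = 0.00920). Of 10 tested trophoblast genes without keratins 2 rose and 0 fell, with sums of 106 and 166 CPM in KO and of 140 and 165 CPM in WT. Gata3, a trophoblast transcription factor, had 7.79 and 6.90 CPM in KO, against 4.10 and 3.87 CPM in WT (0.88 ± 0.20), and Cdx2, below the level of the naming rule, had 1.48 and 0.90 CPM in KO, against 0.29 and 0.21 CPM in WT. Cdx2 was thus near the floor in WT. Of the 10 tested genes 6 had a positive log2 fold change. Tead4 (-0.21 ± 0.27), Tfap2c (-0.43 ± 0.15) and Bmp4 (-0.07 ± 0.26), the most abundant of the list, and Tfap2a (-0.05 ± 0.27) were negative and did not pass. The number of trophoblast genes called changed without KO replicate 2, as did that of all tested genes. Neither Gata3 nor Cdx2 was called in DESeq2 or without WT replicate 2, Gata3 was not called without WT replicate 1, and Cdx2 was not called without KO replicate 1. Of 8 fibroblast genes, as markers of feeder cells, 4 were tested and 0 called by the same 3 tools. Of the 4, 2 had an unadjusted edgeR p under 0.05, again without the share of all tested genes. The sums were 37.6 and 42.7 CPM in KO and 40.4 and 35.2 CPM in WT, most of it from Col5a1 (0.14 ± 0.12), and the 4 untested genes did not exceed 0.617 CPM. None of the markers in these 3 lists was at 0 in all libraries. The part of these cell types in the keratin values was not tested, and in bulk RNA a different number of cells of a type and a different amount of RNA per cell cannot be told apart.

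Scaling to the spike-in lowered the log2 fold changes of the 10 genes and left few calls. It also widened the spread between libraries, with a biological coefficient of variation of 0.363, against 0.0952 with TMM scaling. Mouse counts per S. pombe count were 2.71 and 4.86 in KO and 3.25 and 5.60 in WT, and so differed within each genotype. The part of the shift and of the wider spread in the lost calls was not tested. With S. pombe library sizes the median log2 fold change of all tested genes was -0.23, and 0.00596% of genes were called higher and 0.0953% lower. The values of Krt8 (1.67), Krt18 (1.57), Krt19 (1.52), Krt7 (1.09) and Dsp (1.14) stayed positive, none of the 10 genes or of the genes in the lists above was called, and Cldn4 (-0.14) and Jup (-0.22) turned negative. In the authors' deposited table, which is also scaled to S. pombe and whose fold changes are shrunken per the authors' name for it, Krt8 had a log2 fold change of 1.17 (adjusted p = 0.912 from the authors' DESeq2), Krt18 of 1.12, Krt19 of 1.06, Dsp of 0.85 and Krt7 of 0.64. That deposited table holds 8 of 29514 genes with an adjusted p under 0.05, which is 0.0271%, and none of the 10 is among them.

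**Figure D4:**
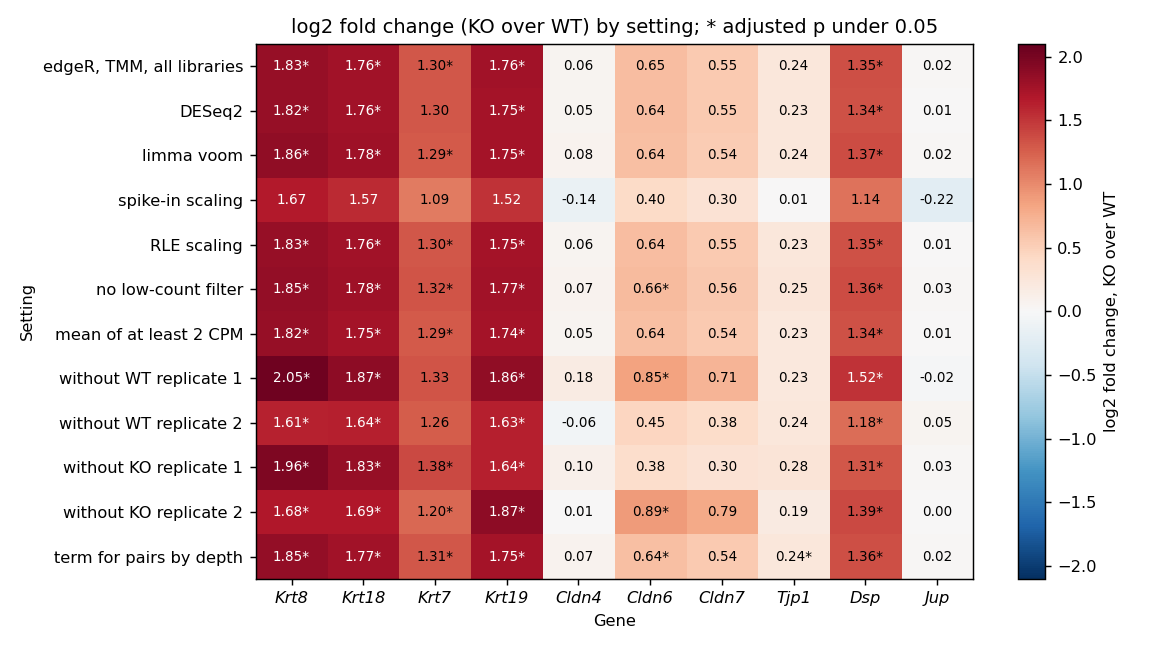
Log2 fold change of KO over WT for each of the 10 genes (columns) in the edgeR fit of all libraries and under 11 other settings (rows), where an asterisk marks an adjusted p under 0.05 over all genes. Krt8, Krt18, Krt19 and Dsp were called in 10 of the 11 other settings and Krt7 in 7, and the values of Cldn4 and Jup lie near 0 with either sign.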

How the data were processed

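TT-seq libraries of Supt3 KO and Supt3 WT mouse ES cells were analysed from deposited gene tables. The build was mm10, per the submitters' processing notes, which list DESeq2 1.16.1, HTSeq 0.6.1p1, STAR 2.5.3, cutadapt 1.10 and bcl2fastq 2.20.0.422. Which feature was counted, with which strand setting and which annotation, is not given in the sources, so values of genes that overlap are uncertain. The authors deposited raw counts per gene for mouse (54146 genes) and S. pombe (7259). Their comparison table repeats the counts (100% equal) and, per the file headers, adds signal values (counts divided by a size factor), log2 fold changes and p-values of the authors.

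Genes were kept by filterByExpr (minimum count 10) and tested with edgeR 4.0.16 (R 4.3.3) quasi-likelihood tests, TMM factors of mouse genes and Benjamini-Hochberg adjustment over all 16789 tested genes, with the threshold at 0.05. The SE was computed as the log2 fold change over the square root of F. The biological coefficient of variation was 0.0952 with TMM scaling and 0.363 with spike-in scaling. Replicates are numbered in accession order. Alternatives were DESeq2 1.42.0, limma 3.58.1 voom, other filters and scalings, a depth term and each library left out; a lone library is then assumed to vary like the other genotype's pair. Neighbour and within-pair values were added later.

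The members and lists were chosen with earlier results of these data known. Named from each list were up to 3 called genes with the largest change, a mean of at least 1 CPM and groups that do not overlap, or else the most abundant gene. The panel joins the lists of keratins, claudins, tight junction, desmosome, adherens junction and epithelial genes.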

Additional observations from a re-analysis of the deposited data

How the results depend on the processing

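With all libraries 680 genes were called higher and 675 lower in KO. DESeq2, limma voom, RLE scaling and the stricter low-count filter kept these numbers, and those of the 10 genes and of the panel, within 1.5 times. Spike-in scaling gave 1 and 16 genes over the whole table, and 0 of the 10 genes and 0 of the panel in either direction. Without the low-count filter 1260 genes were higher and 1200 lower. A term for the pairs by depth, which leaves 1 residual degree of freedom, gave 2214 and 2093, with 22 panel genes higher and 10 lower. Leaving out 1 library gave 338 to 1588 higher and 405 to 1470 lower genes, 4 to 6 of the 10 genes higher, and 5 to 18 panel genes higher and 3 to 10 lower.

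The log2 fold changes of Cldn4 and Jup changed sign, to -0.14 and -0.22 with spike-in scaling, and with single libraries left out, where Cldn4 ranged from -0.0624 (without WT replicate 2) to 0.179 and Jup from -0.0237 (without WT replicate 1) to 0.0523. The cause was not tested. Over the 11 alternatives Krt8 ranged from 1.61 to 2.05, Krt18 from 1.57 to 1.87, Krt19 from 1.52 to 1.87, Krt7 from 1.09 to 1.38 and Dsp from 1.14 to 1.52. The labels give no replicate numbers that pair the libraries, so the term for the pairs by depth is the one blocked fit that was made. Depth limits Krt7 and Cldn7 most, with at most 60 counts in a library.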
